A study of Homo sapiens with 22 samples.

Results

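The genes described here are 10 members of the NF-kappa-B system, found by symbol among the 35237 rows of the deposited count table. They are the 5 subunit genes NFKB1, NFKB2, RELA, RELB and REL, and 5 genes of inhibitors that the pathway itself induces, NFKBIA, NFKBIE, NFKBIZ, TNFAIP3 and BCL3. All 10 were found and all 10 passed the filter on low counts in each model. The libraries were made from total RNA of 2 established cell lines of human neuroblastoma, SK-N-AS and GIMEN, both placed in the mesenchymal class by the labels. The cells were treated with PP121, a kinase inhibitor, and bufalin, a cardiac glycoside, and compared with untreated cells of the same line over 22 libraries.

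Untreated SK-N-AS cells were kept in DMEM with 10% serum (n = 4). The group labelled S1D4 received 5 µM PP121 in DMEM with 1% serum for 4 days (n = 4). The groups S2D4 and S2D30 began from S1D4 cells, which then received 5 µM PP121 and 100 nM bufalin in Neurobasal medium with the supplement B27 for 4 or 30 days (n = 4 each). Untreated GIMEN cells were kept in RPMI with 10% serum (n = 3), and GIMEN D30 cells received 2.5 µM PP121 and 10 nM bufalin in RPMI with 1% serum for 30 days (n = 3). No group had the drugs without the change of serum, so drug, serum, medium and time in culture cannot be told apart.

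NF-kappa-B transcription factors are dimers of 5 related subunits. In resting cells they are held in the cytoplasm by inhibitor proteins, of which the NFKBIA and NFKBIE products are examples. Signals from receptors of tumour necrosis factor and interleukin 1 activate a kinase complex that marks these inhibitors for destruction, while a second route processes the NFKB2 precursor to a form that pairs with the RELB protein. The freed dimers switch on inflammatory genes and also their own inhibitors and several subunits, so that transcripts of the members are commonly read as signs of pathway output.

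Promoter stretches of 6 members are shown because the pathway is known to act on its own genes, and because these members changed in the libraries below. The sequences are from RefSeq on GRCh38.p14, in windows of 300 bases that run from 250 before to 50 after each start site. Of the 10 members, 8 had a window, and RELB and NFKBIE were not matched. Both strands were searched for the NF-kappa-B consensus, a pattern of 10 bases, and 7 members had a match in at least 1 of their windows, against 3619 of 27305 genes with a window (13.3%). By windows these were 9 of 13 for the members and 3956 of 35116 in all (11.3%). The windows of members had a GC content of 51.3% to 80%, mostly above the median of 58.7% over all windows. The shares were not matched for GC content. RELA had no match in these windows, and that of BCL3 lay 3 to 12 bases after the start. NFKB2 and NFKBIZ also had matches in another window, at chr10:102395514-102395704 and chr3:101849264-101849299, and those stretches are not shown. Matches often overlap their own copy on the other strand. Capitals mark the bases of each match, read on the gene's strand. The stretches lie at chr4:102501295-102501334 (NFKB1, plus strand), chr10:102394456-102394524 (NFKB2, plus), chr2:60881512-60881552 (REL, plus), chr14:35404806-35404845 (NFKBIA, minus), chr3:101827752-101827791 (NFKBIZ, plus) and chr6:137867177-137867228 (TNFAIP3, plus).
NFKB1: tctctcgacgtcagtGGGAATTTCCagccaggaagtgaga
NFKB2: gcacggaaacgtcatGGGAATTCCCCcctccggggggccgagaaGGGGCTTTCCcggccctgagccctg
REL: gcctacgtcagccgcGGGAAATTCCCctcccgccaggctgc
NFKBIA: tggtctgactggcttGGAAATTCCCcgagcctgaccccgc
NFKBIZ: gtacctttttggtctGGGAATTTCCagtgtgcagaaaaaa
TNFAIP3: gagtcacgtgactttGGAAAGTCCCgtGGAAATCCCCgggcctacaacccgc
A match is a description of the letters in the window and does not show that a factor binds there.

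Depth was 16456484 to 37506800 counts per library, and mitochondrial transcripts took 2.86% to 12.4% of them. In the S1D4 group of SK-N-AS, replicates 1 and 2 lay apart from replicates 3 and 4. Untreated libraries had more VIM in replicates 1 and 2 (1199.5 and 1062 CPM) than in 3 and 4 (839 and 648 CPM). Among the members, RELB, BCL3 and NFKBIZ (8.31 and 9.53 against 4.34 and 3.33 CPM) had this order untreated. NFKB1 had the opposite order (37.9 and 32.8 against 39.7 and 43.0 CPM), and the other members had neither. The untreated libraries did not form such pairs over the genes kept. There, log2 CPM of untreated replicate 3 correlated more with replicate 1 (0.987) than with replicate 4 (0.982). In S2D4, replicate 4 lay apart from the other libraries. S2D4 replicate 4 had 59.0 CPM (counts scaled to library size, over the 22 libraries) of the protease transcript MMP1, against 1548 to 1713 in the others, with less PRRX1, VIM and CD44. Some results that rest on these libraries are given with and without them, and others only with all libraries. The class in the labels was checked with 12 mesenchymal and 11 adrenergic markers. In untreated SK-N-AS the adrenergic sum was 1683 to 1900.5 CPM and the mesenchymal sum 1062 to 1497. There, 10 of the 11 adrenergic and 11 of the 12 mesenchymal markers averaged over 1 CPM. The lists hold different genes, led by HAND2 (551 to 597 CPM) and VIM (648 to 1199.5 CPM), so their sums cannot settle the class. The adrenergic sum was 316 to 412 CPM in S2D30, where the mesenchymal sum was 3636 to 4297. In untreated GIMEN the mesenchymal sum was 7938 to 8237 CPM and the adrenergic sum 1107 to 1138 CPM, with 4 of the 11 markers at 0 counts. Of 12 leukocyte markers at most 3 averaged over 1 CPM in any group, and their sum was 171 to 216 CPM in untreated SK-N-AS. It was 79.1 to 97.9 CPM in the S1D4 libraries, 102 to 159.5 in those of S2D4 and 102 to 154 in those of S2D30. The GIMEN libraries had sums of 98.8 to 112 CPM before treatment and 180.0 to 414 at day 30. Most of it was PTPRC in untreated SK-N-AS (158 to 207 CPM, and at most 1.36 in S2D30) and CD68 in S2D30 and in GIMEN. CD3E and MS4A1 had 0 counts in the 4 SK-N-AS groups and AIF1 in both GIMEN groups. Sums of endothelial markers were at most 30.9 CPM and of epithelial markers 52.4 to 271 CPM. The part of these shifts in the results was not tested. In bulk RNA, a change in the share of cells in a state and a change within each cell cannot be told apart.

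The members as a group were higher in each treated group of SK-N-AS. In S1D4, 9 of 10 members were higher and 0 lower at an edgeR adjusted p under 0.05, where 17.6% of all genes tested were higher, 22.4% lower and 40.1% changed in either direction. In S2D4 these were 9 and 0, where 30.9% of genes were higher, 32.2% lower and 63.1% changed. In S2D30 they were 10 and 0, where 33.8% were higher, 36.5% lower and 70.3% changed. The median log2 fold change of the members was 1.14, 0.85 and 1.86, and that of all genes -0.01, -0.02 and -0.03. The 3 comparisons share the untreated libraries. In GIMEN D30, 7 members were higher and 1 lower, where 35.5% of genes were higher and 36% lower, and 71.4% changed in either direction. The member median there was 0.85, against 0.02 over all genes. The S1D4 count was 5 with replicates 3 and 4 of the untreated and S1D4 groups alone, as described after the single members. Without single libraries, the members higher numbered 7 to 10 in S1D4 and 8 to 9 in S2D4.

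**Figure D1:**
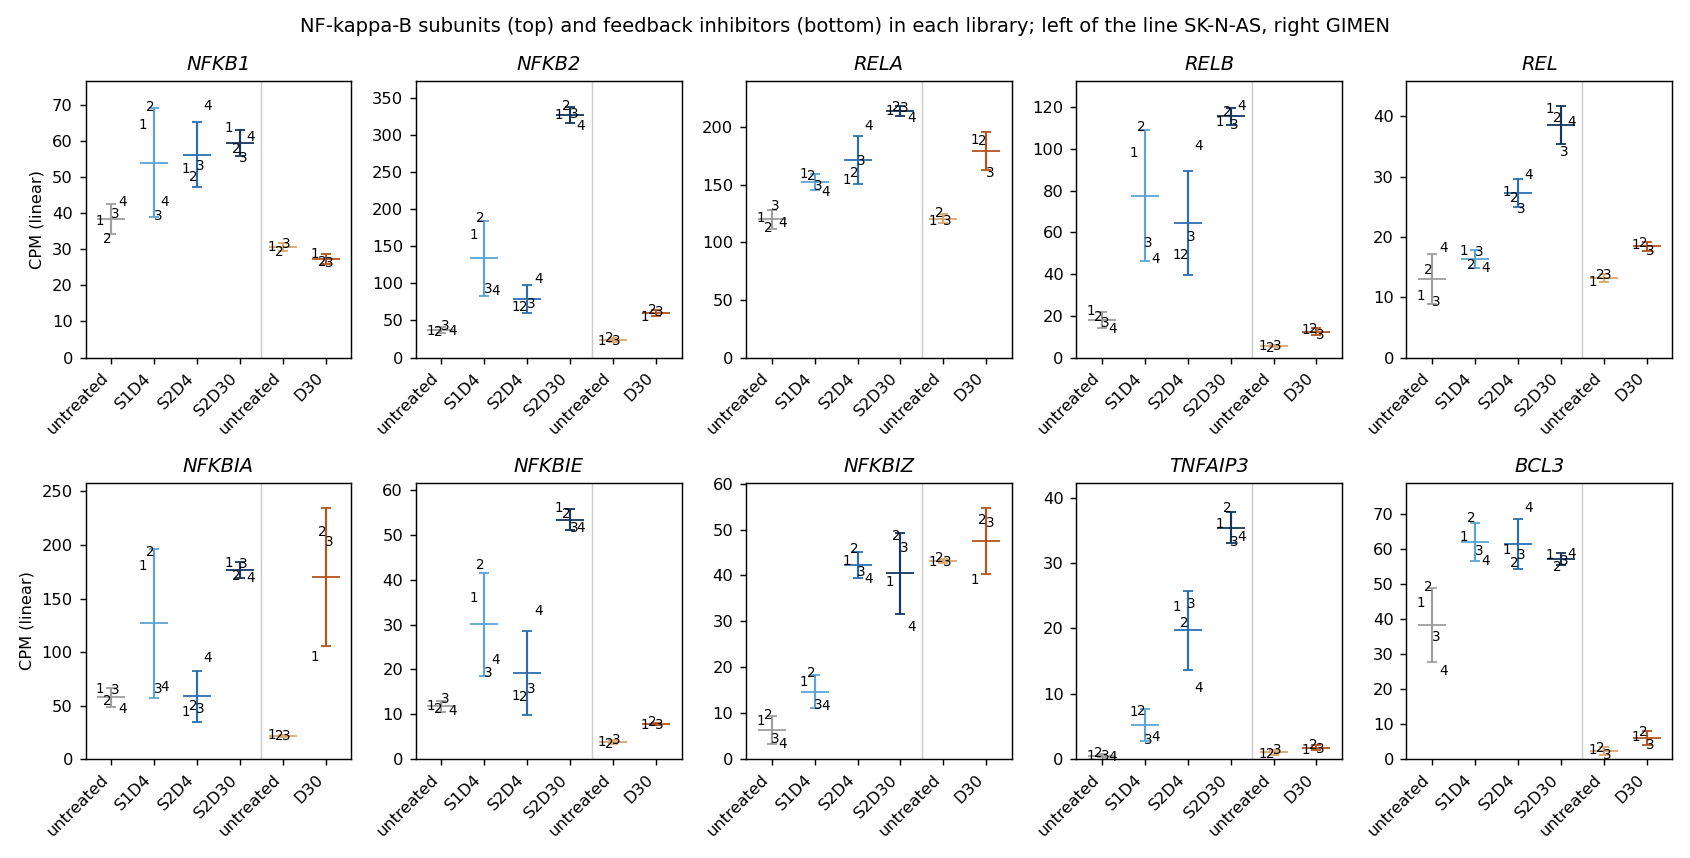
CPM on a linear scale (vertical) of each member in the 6 groups (horizontal). Each digit is 1 library, named by its replicate number, and the bars show mean ± SD (n = 4 in SK-N-AS, n = 3 in GIMEN). TNFAIP3 rose from a mean of 0.541 in untreated SK-N-AS to 35.4 in S2D30, while in S1D4 the digits 1 and 2 lay above 3 and 4 for NFKB2, RELB and NFKBIA.

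Of the subunits, NFKB2, the precursor of the second route, had the largest rise at 30 days. It stood at 36.01, 34.6, 42.7 and 35.2 CPM in untreated SK-N-AS and at 166, 188, 91.8 and 90.2 CPM in S1D4. In S2D4 it stood at 67.7, 67.8, 72.7 and 106 CPM, and in S2D30 at 327, 339, 329 and 312 CPM. Each treated library was above each untreated one, and the S2D30 libraries were above all others, while S1D4 and S2D4 overlapped. The log2 fold changes against untreated cells were 1.83 (SE 0.21, edgeR adjusted p 6.47e-06), 1.05 (SE 0.21, 0.000371) and 3.10 (SE 0.22, 2.34e-09). From S1D4 to S2D4 NFKB2 fell by 0.78 (SE 0.21, 0.00457), and from S2D4 to S2D30 it rose by 2.05 (SE 0.21, 7.5e-07). In GIMEN it went from 22.6, 26.8 and 22.04 CPM to 55.2, 63.8 and 61.6 CPM, groups that did not overlap (1.31, SE 0.09, 1.82e-07).

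RELB, the usual partner of processed NFKB2, followed a like order of groups in SK-N-AS. It stood at 22.5, 19.2, 16.4 and 13.7 CPM in untreated cells and at 97.9, 111, 54.8 and 47.3 CPM in S1D4. In S2D4 it stood at 49.2, 49.1, 58.0 and 102 CPM, and in S2D30 at 113, 118, 111 and 121 CPM. No treated library overlapped the untreated ones, and S1D4 and S2D4 overlapped each other. The log2 fold changes were 2.08 (SE 0.28, edgeR adjusted p 2.12e-05), 1.81 (SE 0.27, 2.52e-05) and 2.65 (SE 0.28, 2.89e-07). In GIMEN, RELB was low, at 5.62, 4.76 and 5.71 CPM untreated and 13.2, 13.5 and 10.6 CPM at day 30, without overlap (1.19, SE 0.15, 1.94e-05).

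The 3 other subunits had smaller fold changes at 30 days. RELA, which carries the main activating domain of the classical dimer, was at 112 to 131 CPM in untreated SK-N-AS and at 207 to 217 CPM in S2D30. Its log2 fold changes were 0.32 (SE 0.08, edgeR adjusted p 0.00612) in S1D4, 0.48 (SE 0.08, 9.65e-05) in S2D4 and 0.80 (SE 0.08, 2.47e-07) in S2D30, and 0.54 (SE 0.07, 3.24e-05) in GIMEN D30. REL, known best from lymphocytes, had 9.16 to 18.2 CPM in untreated libraries and 14.9 to 17.6 in those of S1D4. It then had 24.7 to 30.2 CPM in S2D4 and 34.1 to 41.3 in S2D30. The untreated and S1D4 groups overlapped, and REL was not called in S1D4 (0.30, SE 0.16, adjusted p 0.156), although it was without untreated replicate 4 (0.51, 0.0072). It rose by 1.03 (SE 0.16, 3.85e-05) in S2D4, by 1.53 (SE 0.16, 3.19e-07) in S2D30 and by 0.45 (SE 0.09, 0.00124) in GIMEN D30. In the GENCODE 29 annotation, 43.3% of the exon bases of REL also lie in exons of AC010733.2 on the same strand, and how reads there were assigned is not given in the sources used here.

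NFKB1, which encodes the p105 precursor of the classical dimer, was the only member to fall in GIMEN, and its call in S1D4 depended on single libraries. It stood at 37.9, 32.8, 39.7 and 43.0 CPM in untreated SK-N-AS and at 64.4, 69.5, 39.1 and 43.0 CPM in S1D4. In S2D4 it stood at 52.3, 50.0, 53.0 and 69.7 CPM and in S2D30 at 63.6, 57.9, 55.2 and 61.3 CPM. S1D4 replicates 3 and 4 lay within the untreated range, and the S2D4 and S2D30 libraries lay above it. The log2 fold changes were 0.47 (SE 0.16, edgeR adjusted p 0.0286), 0.52 (SE 0.16, 0.01) and 0.60 (SE 0.16, 0.00337). The call in S1D4 was lost without untreated replicate 2 (0.40, 0.0858), without S1D4 replicate 1 (0.37, 0.097) and without S1D4 replicate 2 (0.32, 0.12), and that in S2D4 with a term for replicates 3 and 4 (0.38, 0.0711). In GIMEN it went from 30.7, 29.3 and 31.5 CPM to 28.8, 26.6 and 26.3 CPM (-0.19, SE 0.08, 0.0408). That call was lost with upper-quartile scaling (-0.14, 0.118), DESeq2 (-0.20, 0.103), the replicate block (-0.19, 0.0653) and 5 of the 6 fits without 1 library, all but the one without D30 replicate 1 (0.0524 to 0.13 in the 5).

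**Figure D2:**
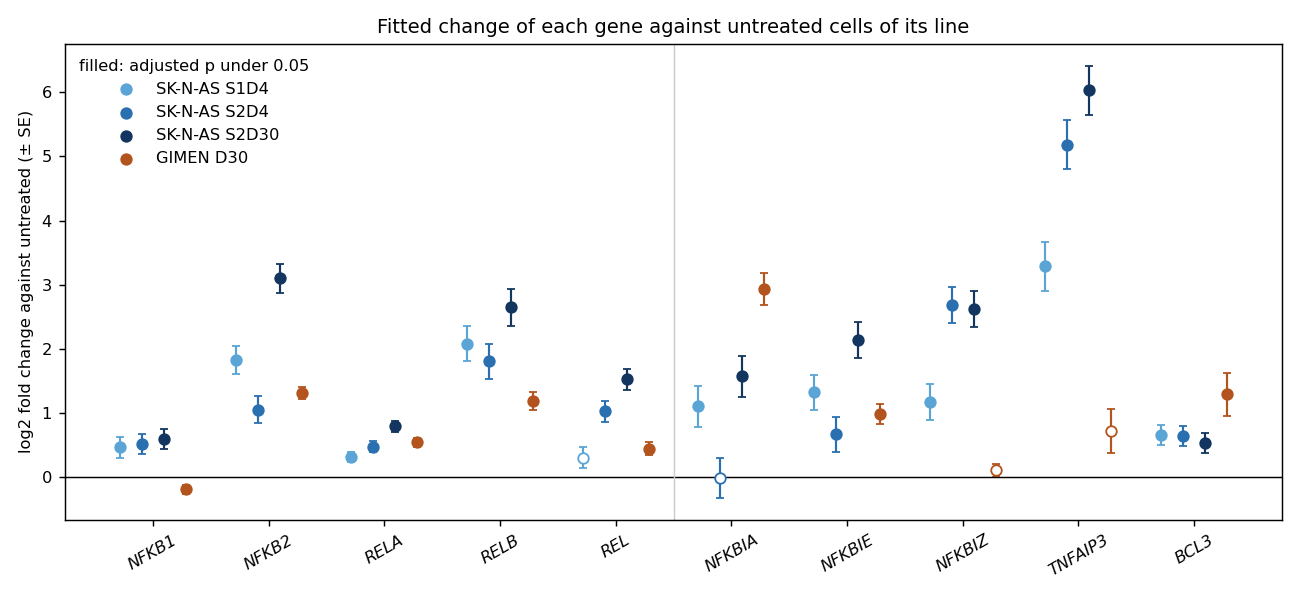
Log2 fold change against untreated cells of the same line (vertical, ± SE from the fitted model) for each member (horizontal), in 4 treated groups. Filled points had an adjusted p under 0.05. TNFAIP3 reached 6.03 in S2D30 and NFKBIA 2.93 in GIMEN D30, while open points mark REL in S1D4, NFKBIA in S2D4, and NFKBIZ and TNFAIP3 in GIMEN.

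Among the feedback inhibitors, TNFAIP3 had the largest change in SK-N-AS. It encodes A20, an enzyme that edits ubiquitin chains and shuts off the signal below the receptors. It stood at 0.420, 0.918, 0.429 and 0.397 CPM in untreated SK-N-AS and at 7.27, 7.39, 2.95 and 3.33 CPM in S1D4. In S2D4 it stood at 23.3, 20.8, 23.7 and 10.9 CPM, and in S2D30 at 35.98, 38.4, 33.3 and 33.9 CPM. None of these 4 groups overlapped another, and each later group was higher. The log2 fold changes against untreated cells were 3.29 (SE 0.38, edgeR adjusted p 5.9e-06), 5.18 (SE 0.38, 5.83e-09) and 6.03 (SE 0.38, 5.28e-10). The steps from S1D4 to S2D4 (1.90, SE 0.30, 5.56e-05) and from S2D4 to S2D30 (0.85, SE 0.28, 0.0193) were also called. In GIMEN the levels stayed low, at 0.825, 0.786 and 1.47 CPM untreated and 1.47, 2.16 and 1.54 CPM at day 30. Those groups overlapped and the change was not called (0.73, SE 0.35, 0.0795), although it was without untreated replicate 3 (1.06, 0.0337).

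NFKBIA encodes the classical inhibitor IkB-alpha, whose resynthesis ends a pulse of signalling. It stood at 65.1, 54.0, 64.9 and 46.8 CPM in untreated SK-N-AS and at 180, 194, 65.4 and 67.8 CPM in S1D4. In S2D4 it stood at 44.0, 49.3, 47.2 and 94.4 CPM and in S2D30 at 183, 171, 182 and 169 CPM. S1D4 replicates 3 and 4 lay just above the untreated libraries, S2D4 overlapped them, and S2D30 was clear of them. Its log2 fold changes were 1.11 (SE 0.32, edgeR adjusted p 0.0109), -0.01 (SE 0.32, 0.981) and 1.57 (SE 0.32, 0.000355). Without S1D4 replicate 2 the first was 0.83 and not called (0.0502). NFKBIA fell by 1.12 from S1D4 to S2D4 (SE 0.32, 0.0072) and rose by 1.58 from S2D4 to S2D30 (SE 0.32, 0.000618). In GIMEN it had the largest change of the members, from 22.6, 21.4 and 21.5 CPM to 95.9, 212 and 203 CPM (2.93, SE 0.25, 9.26e-07). The groups did not overlap, and D30 replicate 1, which was low, also had 60.02 CPM of PRRX1 against 143 and 134 in the others. Without that library the change was 3.23.

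NFKBIE, which encodes IkB-epsilon, stood at 11.8, 11.2, 13.5 and 10.7 CPM in untreated SK-N-AS and at 36.0001, 43.3, 19.1 and 22.04 CPM in S1D4. In S2D4 it stood at 14.02, 13.8, 15.6 and 33.1 CPM and in S2D30 at 56.0, 54.6, 51.5 and 51.5 CPM. S2D4 replicates 1 to 3 lay just above the untreated range, and S2D30 lay far above it. Changes on the log2 scale were 1.33 (SE 0.27, edgeR adjusted p 0.0011), 0.67 (SE 0.27, 0.0418) and 2.14 (SE 0.28, 3.09e-06). The call in S2D4 rested on replicate 4, since the change was 0.26 (0.288) without it. In GIMEN, NFKBIE went from 3.44 to 4.35 CPM to 7.64 to 8.19 CPM without overlap (0.98, SE 0.16, 0.000172).

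NFKBIZ and BCL3 encode nuclear members of the inhibitor family, which bind dimers on DNA and can raise or lower transcription of selected genes. NFKBIZ stood at 8.31, 9.53, 4.34 and 3.33 CPM in untreated SK-N-AS and at 16.7, 18.8, 11.8 and 11.5 CPM in S1D4. It stood at 43.1, 45.8, 40.8 and 39.3 CPM in S2D4 and at 38.6, 48.6, 45.9 and 28.7 CPM in S2D30. The S1D4 libraries lay between the untreated ones and those of S2D4 and S2D30, which overlapped. In log2 terms the changes were 1.17 (SE 0.28, edgeR adjusted p 0.00288), 2.69 (SE 0.28, 4.08e-07) and 2.62 (SE 0.28, 3.23e-07). In GIMEN, NFKBIZ was at 43.0, 43.7 and 42.9 CPM before treatment and at 39.1, 52.0 and 51.3 CPM at day 30, and the change was not called (0.11, SE 0.10, 0.357). It was called without D30 replicate 1 (0.24, 0.00683). BCL3 was at 25.3 to 49.1 CPM in untreated SK-N-AS and at 55.0 to 71.8 CPM over the 3 treated groups, without overlap. Its log2 fold changes were 0.66 (SE 0.16, 0.00285), 0.64 (SE 0.16, 0.00188) and 0.53 (SE 0.16, 0.00574). In GIMEN, BCL3 went from 2.63, 3.29 and 1.24 CPM to 6.28, 7.87 and 3.92 CPM (1.29, SE 0.33, 0.0044), a rise to a level below that of each untreated SK-N-AS library.

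The libraries within S1D4 fell into pairs. NFKB1, NFKB2, RELB, NFKBIA, NFKBIE and TNFAIP3 were higher in both replicates 1 and 2 than in both replicates 3 and 4, as were, by less, RELA, NFKBIZ and BCL3, but not REL. Some transcripts of ligands and targets followed the same division, and others did not. TNF, chosen after its values were seen, was at 11.3, 13.7, 2.28 and 1.29 CPM in S1D4 replicates 1 to 4. LTB was at 17.5, 24.4, 5.65 and 4.04, and CXCL8 at 39.7, 39.1, 11.3 and 11.7. MMP1 went the other way, at 27.8, 25.7, 30.4 and 33.0, as did the receptor gene TNFRSF12A, at 40.8, 39.7, 51.5 and 55.0. With the untreated and S1D4 libraries numbered 1 and 2 alone, 9 members were called higher, and NFKB1 changed by 0.92, NFKB2 by 2.33 and NFKBIA by 1.65. With those numbered 3 and 4 alone, 5 members were called: NFKB2 (1.23, edgeR adjusted p 0.000814), RELB (1.77, 0.00114), NFKBIZ (1.62, 0.000468), TNFAIP3 (2.93, 0.000407) and BCL3 (0.95, 0.00116). The calls lost there were NFKB1 (0.00, adjusted p 1), RELA (0.25, 0.171), NFKBIA (0.26, 0.58) and NFKBIE (0.78, 0.128). Each of these fits has 2 libraries a group in place of 4. Over all genes, 4182 and 3849 were called in S1D4 in the 2 fits, against 6332 of 15810 with all libraries. The labels name no batch, so what sets these libraries apart was not tested.

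**Figure D3:**
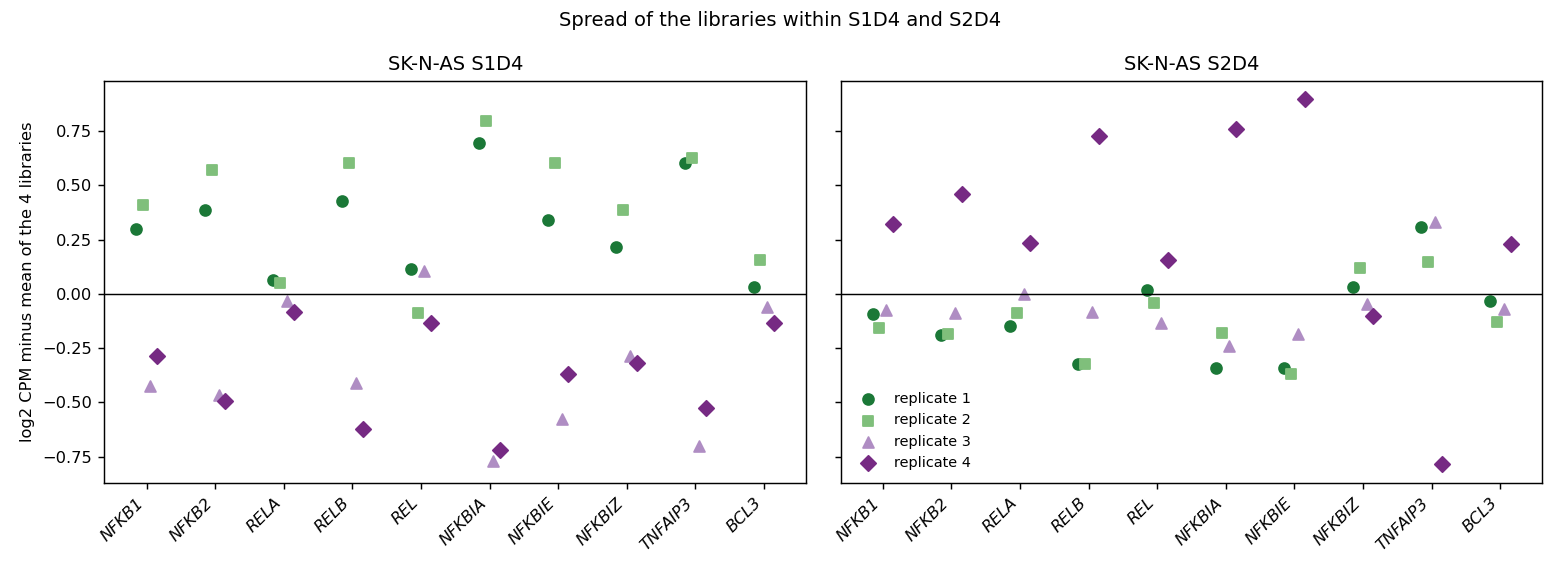
Log2 CPM of each library minus the mean of the 4 libraries of its group (vertical) for each member (horizontal), in S1D4 (left) and S2D4 (right). In S1D4, NFKBIA was at 180 and 194 CPM in replicates 1 and 2 and at 65.4 and 67.8 in replicates 3 and 4. In S2D4, replicate 4 lay above the others for RELB, NFKBIA and NFKBIE and below them for TNFAIP3.

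The step from S1D4 to S2D4, at which bufalin was added and the medium changed, moved the members in both directions. REL (0.73, SE 0.16, edgeR adjusted p 0.00121), NFKBIZ (1.51, SE 0.27, 0.000163) and TNFAIP3 rose, while NFKB2, NFKBIA and NFKBIE (-0.66, SE 0.27, 0.0487) fell. These 6 calls among 10 members stand beside 55.1% of all genes called in that step (28.3% higher and 26.8% lower), so the share is near the background. The 3 falls rest on S1D4 replicates 1 and 2. With the untreated and S1D4 libraries numbered 3 and 4 alone, 0 members were lower, with changes of -0.22 (0.283) for NFKB2, -0.19 (0.563) for NFKBIA and -0.11 (0.783) for NFKBIE. In that fit NFKB1 was higher (0.44, 0.0158), and the changes of REL (0.74), NFKBIZ (1.84) and TNFAIP3 (2.63) were called. RELB was not called with all libraries (-0.27, 0.395), and was lower without S2D4 replicate 4 (-0.58, 0.0434).

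Between day 4 and day 30 of the second stage, under the same drugs and medium, 7 members were higher and 0 lower, where 24.4% of all genes were higher, 26.9% lower and 51.3% changed in either direction. NFKB2 (2.05), NFKBIA (1.58) and NFKBIE (1.47, SE 0.27, edgeR adjusted p 0.000257) had the largest changes. RELB (0.84, SE 0.26, 0.0139), TNFAIP3, REL (0.50, SE 0.16, 0.0148) and RELA (0.32, SE 0.08, 0.00433) rose as well. No call was made for NFKB1 (0.08, 0.709), NFKBIZ (-0.06, 0.858) or BCL3 (-0.10, 0.601). Without S2D4 replicate 4, whose values for NFKB2, RELB, NFKBIA and NFKBIE were nearest to S2D30, the changes were 2.23, 1.15, 1.91 and 1.88. TNFAIP3 was instead lowest in that library (10.9 CPM, against 20.8 to 23.7 in the others). Its change was 0.64 to 0.95 without single libraries.

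The lines differed before treatment. Untreated SK-N-AS had more BCL3 than untreated GIMEN (38.5 ± 10.6, SD, n = 4, against 2.39 ± 1.04 CPM, n = 3, a log2 difference of 4.00, SE 0.33, edgeR adjusted p 3.19e-06) and less NFKBIZ (6.38 ± 3.01 against 43.2 ± 0.439 CPM, -2.74, SE 0.31, 2.63e-05). RELB (1.76, SE 0.19, 1.99e-05), NFKBIE (1.61, SE 0.16, 9.42e-06), NFKBIA (1.41, SE 0.13, 6.58e-06), NFKB2 (0.65, SE 0.11, 0.000559) and NFKB1 (0.34, SE 0.11, 0.0144) were also higher in SK-N-AS. The call of NFKB1 was lost without untreated GIMEN replicate 1 (0.34, 0.0541) or replicate 2 (0.30, 0.0729). RELA and REL were not called, with differences of 0.01 and -0.01, and nor was TNFAIP3 (-0.92, 0.0691). TNFAIP3 was called lower in SK-N-AS (-1.25, 0.0146) without untreated SK-N-AS replicate 2, which at 0.918 CPM was above the other 3 libraries of its group. The 7 calls among 10 members, 6 higher and 1 lower, stand beside 73.6% of all genes called (39.2% higher and 34.4% lower), a share near the background. Line and growth medium cannot be told apart here.

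The 30-day changes were set against each other as a test of the difference between lines, SK-N-AS minus GIMEN. It was called above 0 for 7 members and called below 0 for 1, where 24.5% and 25.2% of all genes tested were so called and 49.7% in either direction. TNFAIP3 differed most (5.29, SE 0.40, edgeR adjusted p 1.39e-08), followed by NFKBIZ (2.49, SE 0.37, 3.11e-05), NFKB2 (1.78, SE 0.14, 1.8e-08), RELB (1.44, SE 0.22, 4.35e-05), NFKBIE (1.14, SE 0.16, 2.28e-05), REL (1.07, SE 0.24, 0.00125) and NFKB1 (0.77, SE 0.13, 0.000124). NFKBIA rose more in GIMEN (-1.38, SE 0.28, 0.000697). RELA (0.24, SE 0.11, 0.0952) and BCL3 (-0.77, SE 0.39, 0.112) were not called, although BCL3 was without untreated SK-N-AS replicate 4 (-0.94, 0.0159) or GIMEN D30 replicate 3 (-0.99, 0.0479), and RELA without untreated SK-N-AS replicate 3 (0.28, 0.0456). The doses, media and serum of the lines differed, and only the SK-N-AS cells had a first stage of PP121 without bufalin. Line, dose, medium, serum and course of treatment therefore cannot be told apart.

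**Figure D4:**
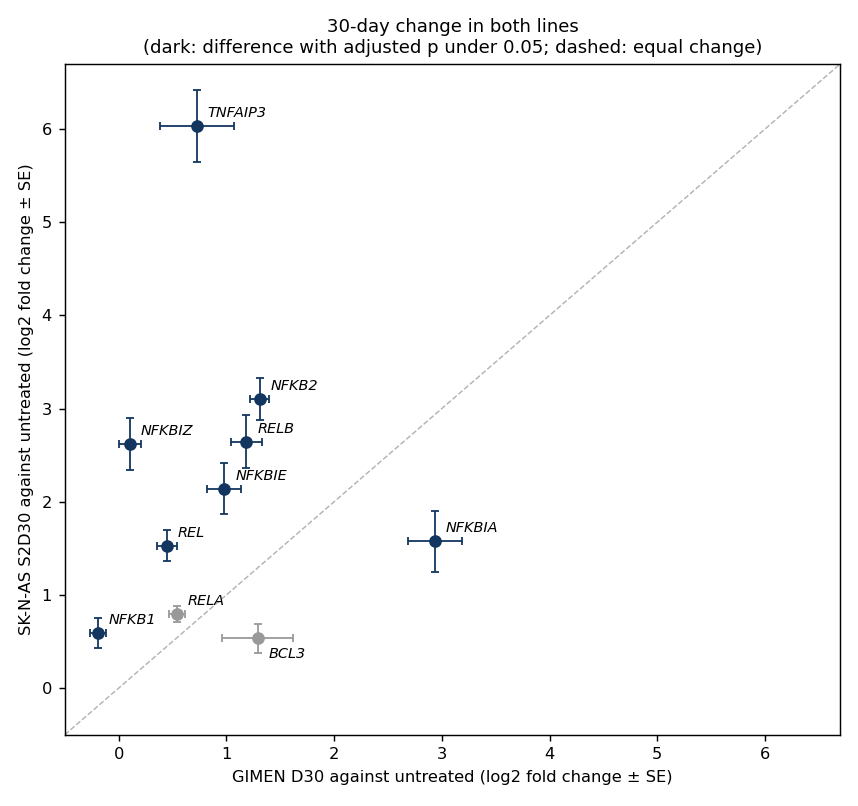
Log2 fold change at 30 days against untreated cells in GIMEN (horizontal) and SK-N-AS (vertical), each ± SE, 1 point per member. Dark points had a difference between lines with an adjusted p under 0.05, and the dashed line marks equal change. NFKBIA lies below the line at 2.93 in GIMEN and 1.57 in SK-N-AS, and TNFAIP3 far above it at 0.73 and 6.03.

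Levels were compared between members per kilobase of exon, as CPM per kb. In untreated SK-N-AS the highest were NFKBIA (24.3), RELA (21.96) and BCL3 (11.9), and the lowest REL (0.990) and TNFAIP3 (0.107). In S2D30 NFKBIA (74.4) and NFKB2 (72.9) were highest, above RELA (39.1) and RELB (38.1). In GIMEN RELA was highest before treatment (22.1) and NFKBIA at day 30 (71.7), while RELB went from 1.77 to 4.09 and TNFAIP3 from 0.203 to 0.341 CPM per kb. These levels use exon lengths of GENCODE 29, and the annotation used for counting is not given in the sources used here.

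Likeness of pattern was measured as the root-mean-square difference of the 6 centred group means of log2 CPM, over 16610 genes. Among the members, RELA and REL were closest (0.32), then NFKB1 and RELA (0.40), and NFKB2 and NFKBIE (0.42). Outside the members, the nearest genes to TNFAIP3 were SPOCD1 (0.38), TRPV3 (0.49) and SHANK1 (0.55), and to NFKBIZ they were SPSB1 (0.18), PLK3 (0.21) and CEP170B (0.21). Those nearest to BCL3 were SALL4 (0.17), TBKBP1 (0.21) and TNFRSF11A (0.21), the last a receptor of the pathway also known as RANK. Of the 30 nearest genes, 15 stayed among them with a smaller prior count of 0.5. Of the genes named here, SHANK1, SALL4 and TNFRSF11A did not stay. TNFRSF11A was low, with a mean of 0.0172 CPM in untreated GIMEN and 1.67 CPM in untreated SK-N-AS. These are descriptions over 6 group means that share libraries.

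Of 28 listed ligands and receptors that feed the pathway, 20 were tested in SK-N-AS, and 14 were higher and 0 lower in S1D4, 15 and 0 in S2D4, and 15 and 1 in S2D30. The shares higher were 70%, 75% and 75%, beside 17.6%, 30.9% and 33.8% of all genes. Called in either direction were 70%, 75% and 80%, beside 40.1%, 63.1% and 70.3% of all genes. Their median log2 fold changes were 1.25, 2.01 and 1.99, and 1.93 in S2D4 with genes at no more than 3 counts a library in 1 group set to their bound. With the untreated and S1D4 libraries numbered 1 and 2 alone, 9 were higher in S1D4. LTB, which encodes the membrane anchor of lymphotoxin, a ligand of the second route, had 1 to 6 counts in untreated libraries and rose in S1D4 by 6.90 (SE 0.82, edgeR adjusted p 7.51e-06), or by 7.98 and 5.22 with the libraries numbered 1 and 2 or 3 and 4 alone. In S2D4 it was at 0.0466 to 1.00 CPM. IL1B, which encodes interleukin 1 beta, was at 0.0477 to 0.618 CPM in untreated libraries and at 279, 252, 256 and 25.3 CPM in S2D4 replicates 1 to 4. It rose by 9.08 in S2D4 (SE 0.72, 1.51e-08) and by 11.04 in S2D30 (SE 0.75, 1.19e-09), with 9.72 and 11.67 without untreated replicate 1. In S2D30 the libraries reached 625 to 897 CPM. In GIMEN, 10 were tested, and 7 were higher and 1 lower (median 0.80), where 35.5% and 36% of all genes were so. The endotoxin receptor gene TLR4 rose (1.63, SE 0.12, 2.67e-07) and TNFRSF12A, the receptor of TWEAK, fell (-1.87, SE 0.14, 3.53e-07). Lower calls there numbered 2 without GIMEN untreated replicate 1, D30 replicate 1 or D30 replicate 2, and 3 without D30 replicate 3.

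All 31 listed genes of the kinase complex and its adaptors were tested in both lines. In S1D4, 8 were higher and 3 lower, in S2D4 9 and 5, in S2D30 13 and 6, and in GIMEN D30 11 and 10, with medians of 0.16, 0.14, 0.24 and 0.09. The shares called in either direction were 35.5%, 45.2%, 61.3% and 67.7%, each below that of all genes in the same comparison (40.1%, 63.1%, 70.3% and 71.4%), so these counts are no result about the list. Genes that rose included RIPK1, a kinase at tumour necrosis factor receptors, in S1D4 (0.53, SE 0.09, edgeR adjusted p 0.00015), CARD10 in S2D4 (1.73, SE 0.26, 2.42e-05) and the adaptor BCL10 in S2D30 (1.55, SE 0.11, 1.09e-09). CARD10 stood at 35.8, 38.8, 44.0 and 99.0 CPM in S2D4 replicates 1 to 4, and its change was 1.27 to 1.89 without single libraries. Among those that fell were TRAF5 in S1D4 (-0.51, SE 0.12, 0.00342) and S2D30 (-1.19, SE 0.13, 2.56e-07), and SHARPIN, part of an enzyme that builds linear ubiquitin chains, in S2D4 (-0.85, SE 0.10, 1e-06). The fall of TRAF5 in S1D4 was -0.34 (0.114) with the libraries numbered 3 and 4 alone. In GIMEN the kinase TBK1 rose (0.98, SE 0.09, 1.49e-06) and MAP3K14, the kinase NIK of the second route, fell (-1.17, SE 0.08, 1.91e-07). Lower calls in S2D4 numbered 8 without its replicate 4 or with upper-quartile scaling, and in S1D4 1 without its replicate 2 and 5 without S2D4 replicate 4.

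Of 23 other negative regulators, 21 were tested, and 6 were higher and 4 lower in S1D4, 11 and 4 in S2D4, 13 and 5 in S2D30, and 10 and 6 in GIMEN D30. Their medians were 0.17, 0.28, 0.65 and 0.20. The shares called in either direction were 47.6%, 71.4%, 85.7% and 76.2%, beside 40.1%, 63.1%, 70.3% and 71.4% of all genes. Those in S1D4, S2D4 and GIMEN D30 are near that background. By direction, 28.6%, 52.4%, 61.9% and 47.6% were higher, beside 17.6%, 30.9%, 33.8% and 35.5% of all genes. Lower were 19%, 19%, 23.8% and 28.6%, beside 22.4%, 32.2%, 36.5% and 36% of all genes. Without S2D4 replicate 4, 12 were higher in S1D4. IRAK2, a receptor-associated kinase in this list that is also known to pass the signal on, rose in S1D4 (2.68, SE 0.37, edgeR adjusted p 2.9e-05), S2D30 (3.52, SE 0.37, 2.95e-07) and GIMEN D30 (2.71, SE 0.15, 2.98e-08). ZC3H12A, which encodes the RNase Regnase-1, rose in S2D4 (1.67, SE 0.29, 9.45e-05), or by 1.32 to 1.83 without single libraries. It stood at 9.41, 8.58, 10.9 and 20.4 CPM in S2D4 replicates 1 to 4. PDLIM2, whose product promotes breakdown of the RELA protein, fell in S2D4 (-2.60, SE 0.17, 2.06e-09). USP18, best known from interferon signalling, fell in S1D4 (-2.39, SE 0.37, 9.17e-05) and S2D30 (-2.67, SE 0.38, 7.79e-06), and COMMD1 fell in GIMEN (-1.88, SE 0.14, 3.23e-07).

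Of 48 known target genes, 41 were tested in SK-N-AS, and 25 were higher and 2 lower in S1D4, 29 and 5 in S2D4, and 31 and 4 in S2D30. The shares higher were 61%, 70.7% and 75.6%, beside 17.6%, 30.9% and 33.8% of all genes. Called in either direction were 65.9%, 82.9% and 85.4%, beside 40.1%, 63.1% and 70.3% of all genes. The medians were 1.40, 2.002 and 2.66, or 0.78, 1.35 and 2.66 with genes at the floor of 3 counts a library set to their bound. CXCL8, a neutrophil chemokine, was at 0.0954 to 0.445 CPM untreated and rose by 6.51 in S1D4 (SE 0.57, edgeR adjusted p 3.94e-07). It stood at 205, 194, 180 and 87.0 CPM in S2D4 and at 1666 to 2019 CPM in S2D30. MMP1, a collagenase, rose by 10.28 in S2D4 (SE 0.89, 4.03e-08), where replicate 4 was far below the others, and reached 8706 to 11018 CPM in S2D30. CCL2, a monocyte chemokine, went against the group at 30 days. It stood at 25.3, 17.6, 11.9 and 6.17 CPM untreated and at 271, 327, 55.4 and 52.7 CPM in S1D4, and was at 2.05 to 5.52 CPM in S2D30 (-2.06, SE 0.63, 0.00782, and -2.87 with a term for replicates 3 and 4). In GIMEN, 28 were tested, and 20 were higher and 6 lower (median 1.49), where 35.5% and 36% of all genes were so. MMP1 rose there by 6.52 (SE 0.38, 3.58e-08), from 2.94 to 4.47 CPM to 576, 230 and 279 CPM, and PTX3, a soluble pattern receptor, fell by 1.93 (SE 0.15, 3.83e-07). Lower calls among the targets numbered 1 in S1D4 without untreated replicate 1 or 3, or S1D4 replicate 2, 3 or 4, and 7 in S2D30 with a term for replicates 3 and 4.

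**Figure D5:**
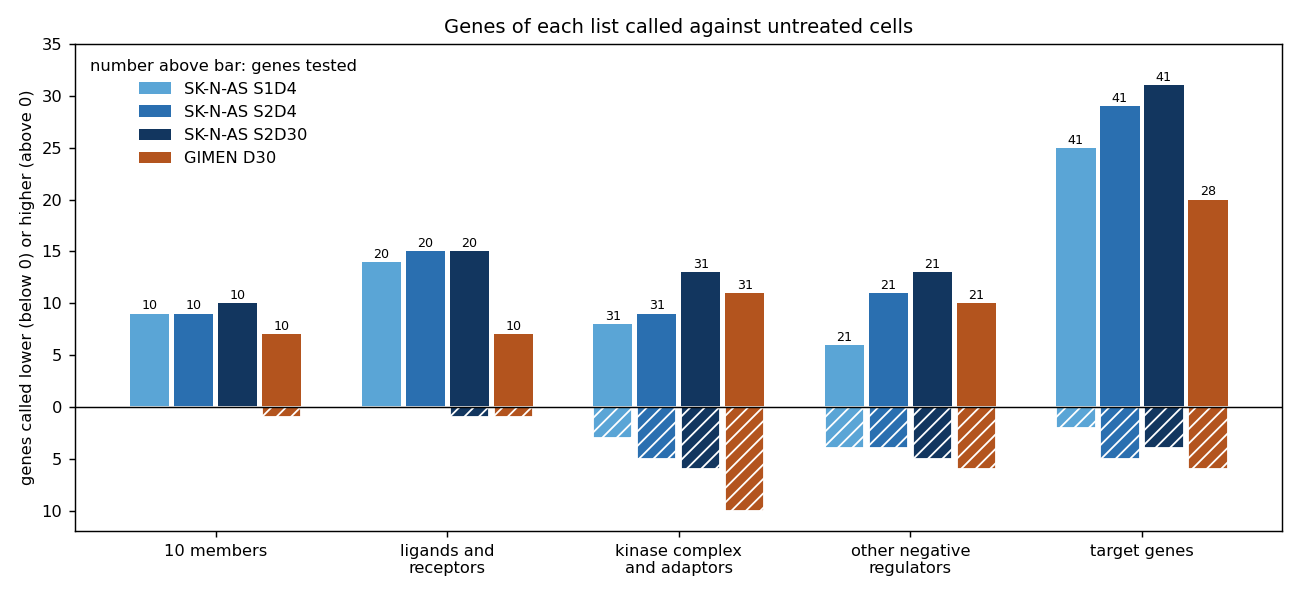
Number of genes called higher (solid, above 0) and lower (hatched, below 0) against untreated cells (vertical) in the members and 4 pathway lists (horizontal), for 4 treated groups, with the number tested above each bar. Of the target genes, 31 of 41 were higher in S2D30, while the kinase complex and adaptors had 13 higher and 6 lower of 31.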

How the data were processed

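Total RNA of 22 libraries was measured by sequencing. The authors deposited whole-number counts per gene symbol, without normalization. Per the labels, RNA was treated with DNase and sequenced in pairs on an Illumina HiSeq X. The aligner, counter, genome build, annotation and use of strand are not given in the sources used here. Groups and replicate numbers follow the labels, which do not say that replicates came from separate cultures, so p-values measure only the spread between these samples.

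The tests used edgeR 4.0.16 under R 4.3.3 (filterByExpr with a minimum count of 10 and minimum total of 15, TMM scaling, quasi-likelihood F-test, Benjamini-Hochberg adjustment over all genes tested, threshold 0.05). One model held the 16 SK-N-AS libraries (15810 genes), another the 6 GIMEN libraries (13517), another the untreated lines (15101) and the last the untreated and 30-day groups for the interaction (16246). The models were tested on simulated data. CPM values were scaled over the 22 libraries. Reads carried no molecular identifiers, and totals of 16456484 to 37506800 counts set the precision.

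The members, the lists and the tests were chosen with earlier results of these data known. From each of 4 pathway lists and each comparison with untreated cells, the text names the largest rise and the largest fall among genes with an adjusted p under 0.05, a mean of at least 10 CPM and groups that do not overlap, in the lists and comparisons where such a gene existed. Not every gene so found is described. Alternatives were DESeq2 1.42.0 with its own test, its size factors, upper-quartile factors, a filter at a mean count of 10, none at all, a replicate block, a term for replicates 3 and 4 of untreated and S1D4, the compared groups alone, all 22 libraries for the interaction, and each library left out. Fits with only replicates 1 and 2, or only 3 and 4, of untreated and S1D4 were added after seeing the data. A protein motif search was planned and not run. One gene of the planned adrenergic markers is not reported here.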

Additional observations from a re-analysis of the deposited data

Results flagged for a closer look

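In S2D4, replicate 4 was far from the other 3 libraries by the gap between neighbours relative to the range of the group. This held for NFKB1 at 69.7 CPM, NFKB2 at 106, RELB at 102, NFKBIA at 94.4 and NFKBIE at 33.1. In untreated SK-N-AS, replicate 2 was far from the others for TNFAIP3, at 0.918 CPM. Of 40 groups of 4 libraries tested, 6 were marked in this way, and chance marks about 1 in 20. The 5 marks in S2D4 fall on 1 library and are not independent.

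The 30-day change differed between the lines, SK-N-AS minus GIMEN on the log2 scale, by the edgeR test of the difference. It was 0.77 for NFKB1, 1.78 for NFKB2, 1.44 for RELB, 1.07 for REL, -1.38 for NFKBIA, 1.14 for NFKBIE, 2.49 for NFKBIZ and 5.29 for TNFAIP3.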

How the results depend on the processing

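Of 2264 values of members and named genes under alternatives, 2175 kept their direction and side of the threshold, 50 lost and 12 gained a call, and 27 changed sign. The cause was not tested, except that some alternatives held fewer libraries. In GIMEN, members lower numbered 0 with upper-quartile factors, the replicate block and DESeq2, and 0 to 1 without single libraries. Between untreated lines they numbered 1 to 2, and for the interaction 1 to 2, without single libraries, and 2 with the replicate block. With only replicates 3 and 4 of untreated and S1D4, 5 members were higher in S1D4 and 0 lower from S1D4 to S2D4. Genes called in S1D4 numbered 6332, and 3849 with those replicates or 4182 with 1 and 2. The sign changes were of uncalled values or of subsets. NFKBIA in S2D4 was 0.0295 without a filter and -0.337 to 0.107 without single libraries. From S1D4 to S2D4, NFKB1 was -0.0545 with upper-quartile factors, -0.0516 with the term for replicates 3 and 4, -0.254 with replicates 1 and 2 alone and -0.0772 to 0.194 without single libraries. BCL3 was 0.0688 and RELB 0.323 with replicates 3 and 4 alone, and BCL3 -0.107 to 0.0296 without single libraries. NFKB1 in S1D4 was -0.00116 with replicates 3 and 4 alone. NFKBIZ from S2D4 to S2D30 was -0.165 to 0.0686 without single libraries. Between untreated lines, REL was 0.000817 with DESeq2 size factors, 0.115 with upper-quartile factors and -0.211 to 0.131 without single libraries, and RELA was -0.000356 without a filter and -0.0301 to 0.0638 without single libraries. Upper-quartile factors moved the median of all genes between the untreated lines from 0.07 to 0.21. NFKBIE lost its calls in S2D4 and from S1D4 to S2D4, both near the threshold, in several alternatives, with adjusted p-values of 0.0237 to 0.288 and of 0.000417 to 0.783.

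The labels do not say that a replicate number marks a shared batch, and no pair of groups had every same-number correlation of deviations over 0.1, so the numbers were not taken to pair the samples. Between untreated SK-N-AS and S1D4 the correlations were 0.274, 0.266, 0.0436 and 0.293 for replicates 1 to 4, and each but replicate 3 correlated best with its own number, a hint of pairing from the data. Between the other groups they were -0.101 to 0.103. With the replicate block, 9, 8, 10 and 7 members were higher in S1D4, S2D4, S2D30 and GIMEN D30, and 2 were lower from S1D4 to S2D4. The interaction of BCL3 was called with it (-0.76, adjusted p 0.0379).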
